A study of Rattus norvegicus with 18 samples.

Results

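miR-137, miR-138, miR-153, miR-218a, miR-219a and miR-338, miRNAs known mainly from neurons and glia, were followed through small RNA sequencing of rat gastrocnemius muscle. Of the 909 entries of the count table, 15 belonged to these 6 miRNAs, and 4 of those carried only a miRNA name and an arm and reached 100 counts over the 18 libraries, namely rno-miR-138-5p, rno-miR-218a-5p, rno-miR-338-3p and rno-miR-338-5p. A further 3 entries reached 100 counts but carried a precursor number, namely rno-miR-138-1-3p, rno-miR-219a-1-3p and rno-miR-219a-2-3p, and they are described beside the 4. The remaining 8 entries had fewer than 100 counts. The closest below that limit were rno-miR-137-3p and rno-miR-153-3p, with 95 and 94 counts. Over the whole table, 585 entries reached 100 counts.

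The muscles came from 18 male Brown Norway rats, 1 library per rat and 6 rats per group. The young AL group was 6 months old and the old AL group 28 months old, and both had free access to food. The old CR group was also 28 months old and had been held on caloric restriction (CR) from 2 months of age at 55% of the ad libitum intake, on the same diet. All rats had been fed ad libitum in groups until 2 months and were housed singly thereafter. The labels name no line, allele or drug. No group of young CR rats was analysed here, so age under CR has no contrast of its own, and CR has a single one, at 28 months. Old CR against young AL differs in both age and diet. Libraries held 34940346 to 83110905 counts, and a level is given in CPM, counts scaled to a common library size, after TMM scaling, which corrects each library for its composition. At these depths a count of 0 allows up to 3 counts, or 0.0286 to 0.0898 CPM depending on the library, and this limit covers counting error only. The muscle label was checked against striated muscle miRNAs, and the 4 entries of miR-1 and its locus (rno-miR-1-3p, rno-miR-1-5p, rno-miR-1b and the opposite-strand rno-miR-3571) alone held 44.7 to 61.6% of the counts of each library.

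A mature miRNA guides the silencing complex to messenger RNAs through its seed, bases 2 to 8 from its 5′ end, and the hairpin precursor can yield a mature strand from its 5p arm, its 3p arm or both. miR-218 is strongly enriched in motor neurons and is embedded in the Slit genes, whose products guide axons. miR-138, miR-137 and miR-153 are abundant in neurons of the brain, where miR-138 acts at dendritic spines and miR-153 on vesicle release. miR-219 and miR-338 are best known from oligodendrocytes, the myelinating glia of the central nervous system, in which they promote differentiation. Whole muscle contains intramuscular nerve, motor nerve endings and Schwann cells besides the fibres, and in such bulk samples fewer cells of a type and less RNA per cell cannot be told apart.

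The mature sequences identify what was counted. They were taken from RefSeq with the GRCr8 assembly, and the seed is written in capitals.
rno-miR-218a-5p: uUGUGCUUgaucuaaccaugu
rno-miR-138-5p: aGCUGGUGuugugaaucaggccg
rno-miR-137-3p: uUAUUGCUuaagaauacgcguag
rno-miR-153-3p: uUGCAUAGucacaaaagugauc
rno-miR-338-3p: uCCAGCAUcagugauuuuguuga
rno-miR-338-5p: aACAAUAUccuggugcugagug
rno-miR-219a-5p: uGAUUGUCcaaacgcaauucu
rno-miR-219a-1-3p: aGAGUUGCgucuggacgucccg
rno-miR-219a-2-3p: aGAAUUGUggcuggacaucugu

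No seed was shared among these sequences, and 0 other mature rat miRNAs of the 693 in RefSeq carried the seed of any of them, so each stands as a seed family of its own. The mature sequence of miR-138-5p occurs in 2 hairpins (Mir138-1 and Mir138-2), that of miR-218a-5p in 2 (Mir218-1 and Mir218-2) and that of miR-219a-5p in 2 (Mir219a1 and Mir219-2), and counts of these entries cannot be assigned to either copy. The 3p arms of miR-219a differ between the copies and are counted separately. In the annotation, Mir218-1 lies within Slit2, Mir218-2 within Slit3, Mir338 within Aatk (an apoptosis-associated tyrosine kinase of the nervous system), Mir153 within Ptprn2 (a protein of dense-core vesicles), Mir219-2 within Cercam and Mir138-2 within Slc12a3. No coordinates are given, since the submitters' processing notes name another assembly, Rnor_6.0.

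4 of these entries have a counterpart that RefSeq places on the opposite strand of the same locus. Each counterpart is printed with the bases in capitals that are complementary to rno-miR-218a-5p, rno-miR-219a-2-3p, rno-miR-338-3p and rno-miR-338-5p respectively.
rno-miR-218b: CAUGGUUAGAUCAAGCACAA
rno-miR-219b: AGAUGUCCAGCCACAAUUCUcg
rno-miR-3065-5p: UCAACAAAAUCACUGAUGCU
rno-miR-3065-3p: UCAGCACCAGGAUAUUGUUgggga

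The deposited counts of these entries were close to those of their counterparts, or in a near constant proportion to them. rno-miR-3065-5p had 3005 counts against 3008 of rno-miR-338-3p, and the 2 entries lay within 10% or 2 counts of each other in 18 of 18 libraries. rno-miR-3065-3p reached 95.4% of the counts of rno-miR-338-5p (91.0 to 98.1% by library), also within that tolerance in 18 of 18 libraries. rno-miR-219b reached 93.7% of rno-miR-219a-2-3p (86.2 to 114% by library), within the tolerance in 13 of 18. rno-miR-218b reached 80.4% of rno-miR-218a-5p (75.1 to 82.4% by library). The pattern was not restricted to these miRNAs, as 24 of the 44 opposite-strand pairs with 100 or more counts lay within the tolerance in all 18 libraries. The library kit retained strand, but no source used here states how strand was treated in the counting, and reads of rno-miR-218a-5p, rno-miR-219a-2-3p, rno-miR-338-3p and rno-miR-338-5p cannot be told apart from those of their counterparts. rno-miR-138-5p, rno-miR-137-3p, rno-miR-153-3p and rno-miR-219a-1-3p have no such counterpart in the annotation.

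**Figure D1:**
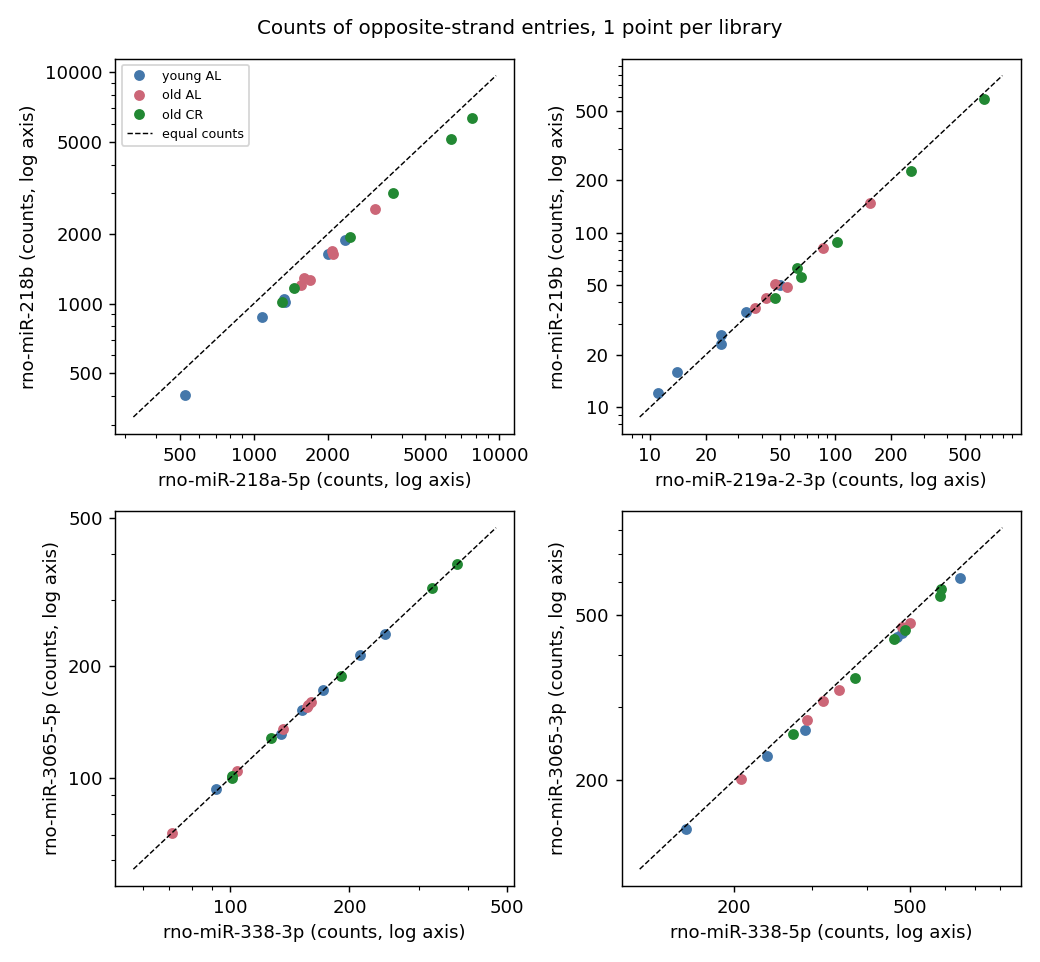
Counts of 4 entries (horizontal axes, log scale) against the entry annotated on the opposite strand (vertical axes, log scale), with 1 point per library coloured by group and a dashed line of equal counts. Points of rno-miR-338-3p lie on the line, those of rno-miR-338-5p and rno-miR-219a-2-3p on or just beside it, and those of rno-miR-218a-5p below it at a near constant distance.

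The 6 miRNAs differed widely in level, from a miRNA among the more abundant of muscle to entries near the limit of counting. Levels compared between entries are per count, and the mature sequences have similar lengths (21 to 23 bases). Among the 763 known miRNAs, rno-miR-218a-5p ranked 111 with 38.7 ± 26.0 CPM (SD over 18 libraries), rno-miR-338-5p 192 with 6.36 ± 1.85, rno-miR-338-3p 241 with 2.74 ± 1.26, rno-miR-219a-2-3p 281 with 1.53 ± 2.49 and rno-miR-138-5p 337 with 0.885 ± 0.496. rno-miR-219a-1-3p ranked 414, rno-miR-138-1-3p 472, rno-miR-137-3p 490, rno-miR-153-3p 497 and rno-miR-219a-5p 541, all at or below 0.271 CPM on average. rno-miR-218a-5p exceeded rno-miR-338-5p in 18 of 18 libraries, rno-miR-338-5p exceeded rno-miR-338-3p in 17 and rno-miR-338-3p exceeded rno-miR-219a-2-3p in 16. The neighbours rno-miR-219a-2-3p and rno-miR-138-5p did not differ beyond their spread, the former being higher in 10 of 18.

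miR-218a was the most abundant of the 6. Which cells of the muscle the counts of any of the 6 came from was not tested. rno-miR-218a-5p made up 99.95% of the 43869 counts of miR-218a, with 9 and 11 counts for the 3p arms of its copies. rno-miR-138-5p made up 83.3% of the counts of miR-138. rno-miR-338-5p made up 70.5% of the counts of miR-338 and rno-miR-338-3p 29.5%. In miR-219a, rno-miR-219a-2-3p held 82.4% of the counts, rno-miR-219a-1-3p 15.2% and the 5p arm 2.46%. rno-miR-137-5p and rno-miR-153-5p had 3 and 5 counts in all 18 libraries together.

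**Figure D2:**
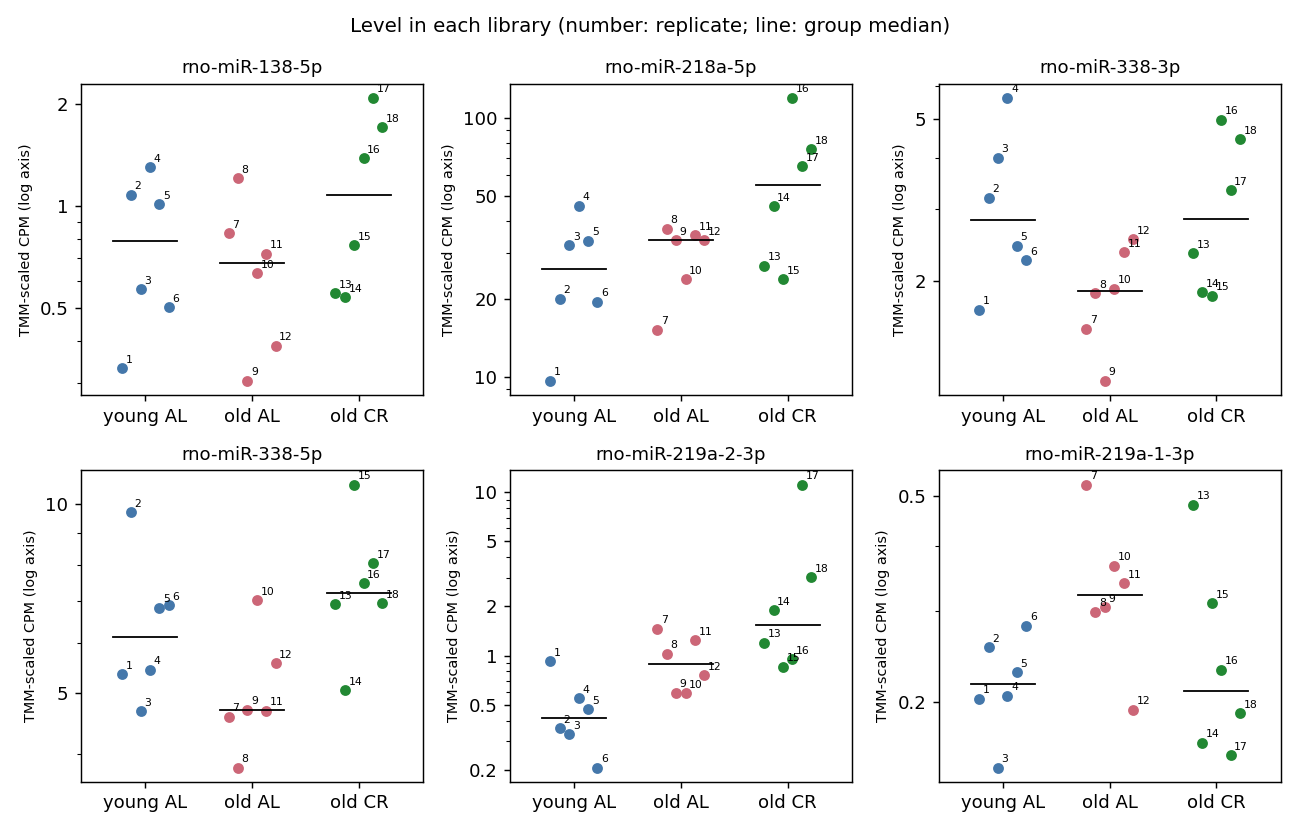
Level of 6 entries in each library, in TMM-scaled CPM on log axes, by group, with the replicate number beside each point and a line at the group median. Old CR replicates 16, 17 and 18 lie at the top for rno-miR-138-5p and rno-miR-218a-5p, and old CR replicate 17 stands apart for rno-miR-219a-2-3p at 11.1 CPM.

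Age was addressed first, with old AL against young AL. edgeR called 0 of the 4 members (an entry was called at a fold change of 1.5 or more and an adjusted p not above 0.05), in a comparison in which 3.28% of the 732 entries tested were called and 0.956% were called higher in old AL. By DESeq2 again 0 of 4 were called, against 11.5% of all entries. At an unadjusted p under 0.05, 1 of 4 passed, against 23.4% of all entries. 1 of the 4 was higher and 3 were lower in old AL, and their median log2 fold change was -0.29 against 0.06 over all entries.

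rno-miR-218a-5p lay at 9.70, 26.2 and 45.8 CPM in young AL (lowest, median and highest of 6 libraries) and at 15.2, 33.7 and 37.3 CPM in old AL. The old AL libraries lay inside the range of the young ones. The log2 fold change was 0.17 ± 0.332 (SE), with an edgeR adjusted p of 0.827. rno-miR-138-5p, the miRNA of dendritic spines, lay at 0.333, 0.791 and 1.30 CPM in young AL and at 0.305, 0.678 and 1.21 CPM in old AL, again with overlapping groups. Its log2 fold change was -0.23 ± 0.379 (edgeR adjusted p = 0.801), and it rested on 18 to 72 counts per young library and 19 to 101 per old AL library.

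rno-miR-338-3p, the glial arm whose counts match those of rno-miR-3065-5p, had the lowest unadjusted p of the 4. It lay at 1.70, 2.82 and 5.62 CPM in young AL and at 1.14, 1.89 and 2.53 CPM in old AL. 2 of the 6 old AL libraries were below every young library, and the others overlapped with them. The log2 fold change was -0.75 ± 0.287 with an unadjusted edgeR p of 0.0231, which did not pass after adjustment (edgeR adjusted p = 0.153, DESeq2 adjusted p = 0.0869). rno-miR-338-5p lay at 4.67, 6.14 and 9.71 CPM in young AL and at 3.80, 4.69 and 7.02 CPM in old AL, a log2 fold change of -0.35 ± 0.214 (edgeR adjusted p = 0.337). Both arms thus had lower medians in old AL, by amounts that did not pass the test.

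The 3p arms of miR-219a, the other glial miRNA, had values in the other direction. rno-miR-219a-2-3p lay at 0.207, 0.415 and 0.924 CPM in young AL and at 0.591, 0.893 and 1.46 CPM in old AL. 3 of the 6 old AL libraries were above all young ones. The log2 fold change was 0.98 ± 0.365, with an unadjusted edgeR p of 0.0202 and an adjusted p of 0.151. rno-miR-219a-1-3p lay at 0.150, 0.217 and 0.281 CPM in young AL and at 0.193, 0.322 and 0.525 CPM in old AL, and the old AL libraries other than replicate 12 exceeded the highest young one. Its log2 fold change was 0.60 ± 0.274 (unadjusted edgeR p = 0.0487, adjusted p = 0.212, exact permutation p = 0.0368). It rested on 5 to 19 counts per young library.

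**Figure D3:**
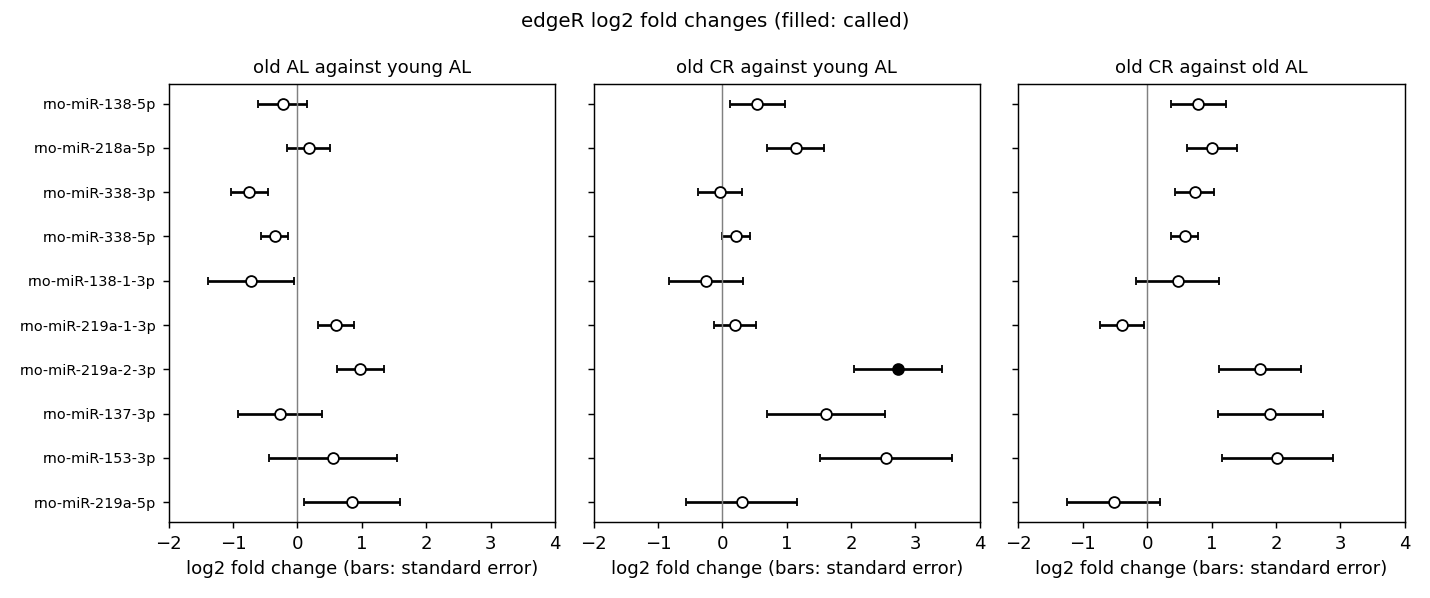
edgeR log2 fold changes of 10 entries in the 3 comparisons, with bars of 1 standard error and a filled point for a called entry. The only filled point is rno-miR-219a-2-3p in old CR against young AL, at 2.73.

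Old CR against young AL spans the same age difference and also differs in diet, so age and diet cannot be told apart in it. Again 0 of the 4 members were called by edgeR or by DESeq2, in a comparison in which edgeR called 9.32% of 730 entries (4.11% higher in old CR) and DESeq2 14.9%. At an unadjusted p under 0.05, 1 of 4 passed, against 25.5% of all entries. 3 of the 4 were higher in old CR, with a median log2 fold change of 0.38 against 0.08 over all entries. Old CR against young AL and old AL against young AL share the young AL libraries, so the values of both stand side by side and are not independent.

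rno-miR-218a-5p lay at 23.8, 55.3 and 119 CPM in old CR. Old CR replicates 16, 17 and 18 had 119, 65.0 and 75.7 CPM, above the highest young AL library at 45.8, and the other 3 overlapped with the young group. The log2 fold change was 1.14 ± 0.445 (2.20-fold), with an unadjusted edgeR p of 0.0250 and an adjusted p of 0.129, and DESeq2 gave an adjusted p of 0.0568. rno-miR-138-5p lay at 0.538, 1.08 and 2.09 CPM in old CR, again with replicates 16, 17 and 18 above every young library, at 1.39, 2.09 and 1.71 CPM. Its log2 fold change was 0.55 ± 0.431 (edgeR adjusted p = 0.495).

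The arms of miR-338 overlapped between old CR and young AL. rno-miR-338-3p lay at 1.84, 2.84 and 4.97 CPM, within the young range, with a log2 fold change of -0.03 ± 0.343 (edgeR adjusted p = 0.977) whose sign depended on single libraries. rno-miR-338-5p lay at 5.05, 7.22 and 10.7 CPM, with a log2 fold change of 0.21 ± 0.216 (edgeR adjusted p = 0.627).

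Of the 11 tested entries of the 6 miRNAs, 1 was called in old CR against young AL, where edgeR called 9.32% of all entries, a similar share. It was rno-miR-219a-2-3p, the 3p arm from the Mir219-2 copy, upregulated in old CR and the only one called in any comparison. It lay at 0.857, 1.55 and 11.1 CPM in old CR against 0.207, 0.415 and 0.924 CPM in young AL, and 5 of the 6 old CR libraries were above all young ones. The replicates 13 to 18 had 1.2, 1.89, 0.857, 0.954, 11.1 and 3.03 CPM, so that replicate 17 alone held 635 of the 1166 counts of the group. The log2 fold change was 2.73 ± 0.681 (6.65-fold), with an edgeR adjusted p of 0.0279 and a DESeq2 adjusted p of 3.08e-04. Without old CR replicate 17 the log2 fold change was 1.74 (edgeR adjusted p = 0.0334). The call was lost when any of young AL replicates 2, 3, 4, 5 and 6 was left out (log2 fold change 2.58 to 2.78, edgeR adjusted p 0.0502 to 0.0601), and by an exact permutation test of the log2 levels (p = 0.00433, adjusted p = 0.0536). Its counterpart rno-miR-219b, which cannot be told apart from it in these counts, had a log2 fold change of 2.55 ± 0.668 (edgeR adjusted p = 0.0314).

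The 3p arm of the other copy was not called with it. rno-miR-219a-1-3p lay at 0.158, 0.211 and 0.480 CPM in old CR, with a log2 fold change of 0.20 ± 0.324 against young AL (edgeR adjusted p = 0.799). rno-miR-219a-2-3p held 64.2% of the miR-219a counts of young AL, 70.2% of those of old AL and 91.5% of those of old CR. The ratio of rno-miR-219a-2-3p to rno-miR-219a-1-3p averaged 2.27 ± 1.30 (SD, n = 6) for young AL, 2.89 ± 0.947 for old AL and 17.9 ± 26.4 for old CR, where it ran from 2.50 to 70.6. In an exact permutation test of the log2 ratio, chosen after the values were seen, old CR exceeded young AL by 2.11 (p = 0.0216, adjusted p = 0.130 over 6 tests) and old AL by 1.62 (p = 0.0606, adjusted p = 0.182). The difference between the copies thus did not pass adjustment, and 3 of 6 old CR libraries were above all young ones. The ratio of the arms of miR-338, 3p to 5p, averaged 0.537 ± 0.322 for young AL, 0.382 ± 0.114 for old AL and 0.433 ± 0.189 for old CR, with adjusted p from 0.562 to 0.773 in the same family of tests.

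Restriction in old age was addressed with old CR against old AL. This comparison had few calls in all, 0.272% of 736 entries by edgeR, all of them higher in old CR (0.272%), and 2.58% by DESeq2. The members called numbered 0 of 4 by both tools. At an unadjusted p under 0.05, 3 of 4 passed, against 12.0% of all entries, and 4 of 4 were higher in old CR with a median log2 fold change of 0.77 against 0.01 over all entries. The 3 are not independent of each other, since both arms of miR-338 come from the same hairpin.

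In this comparison rno-miR-218a-5p had a median of 33.7 CPM in old AL and of 55.3 CPM in old CR. Old CR replicates 14, 16, 17 and 18 were above all old AL libraries. The log2 fold change was 1.0 ± 0.389 (unadjusted edgeR p = 0.0242, exact permutation p = 0.0844) and did not pass after adjustment. rno-miR-338-5p had a log2 fold change of 0.58 ± 0.203 (unadjusted edgeR p = 0.0145, DESeq2 adjusted p = 0.0887) and rno-miR-338-3p of 0.74 ± 0.303 (unadjusted edgeR p = 0.0309), each with 3 of 6 old CR libraries above all old AL ones. rno-miR-138-5p had a log2 fold change of 0.79 ± 0.427 (unadjusted edgeR p = 0.0888). rno-miR-219a-2-3p had a log2 fold change of 1.75 ± 0.631 (unadjusted edgeR p = 0.0166, DESeq2 adjusted p = 0.0743). The edgeR adjusted p of these 5 entries was 0.392 or 0.458.

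The rare neuronal miRNAs are given by their counts. rno-miR-137-3p had 15 counts over the young AL libraries, 18 over the old AL libraries and 62 over the old CR libraries, of which replicates 17 and 18 held 27 and 21. The other 16 libraries had 6 counts or fewer each. Its log2 fold change in old CR was 1.61 ± 0.910 against young AL (edgeR adjusted p = 0.290) and 1.91 ± 0.813 against old AL (edgeR adjusted p = 0.392). rno-miR-153-3p had 9 counts over the young AL libraries, 3 of them at 0, 18 over the old AL libraries and 67 over the old CR libraries, of which replicates 16, 17 and 18 held 19, 10 and 24 and replicate 13 held 10. Its log2 fold change in old CR was 2.54 ± 1.02 against young AL (edgeR adjusted p = 0.141). rno-miR-219a-5p, the arm shared by both copies, had 10, 26 and 16 counts in the 3 groups and was not called. rno-miR-138-1-3p had 44, 40 and 44 counts.

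**Figure D4:**
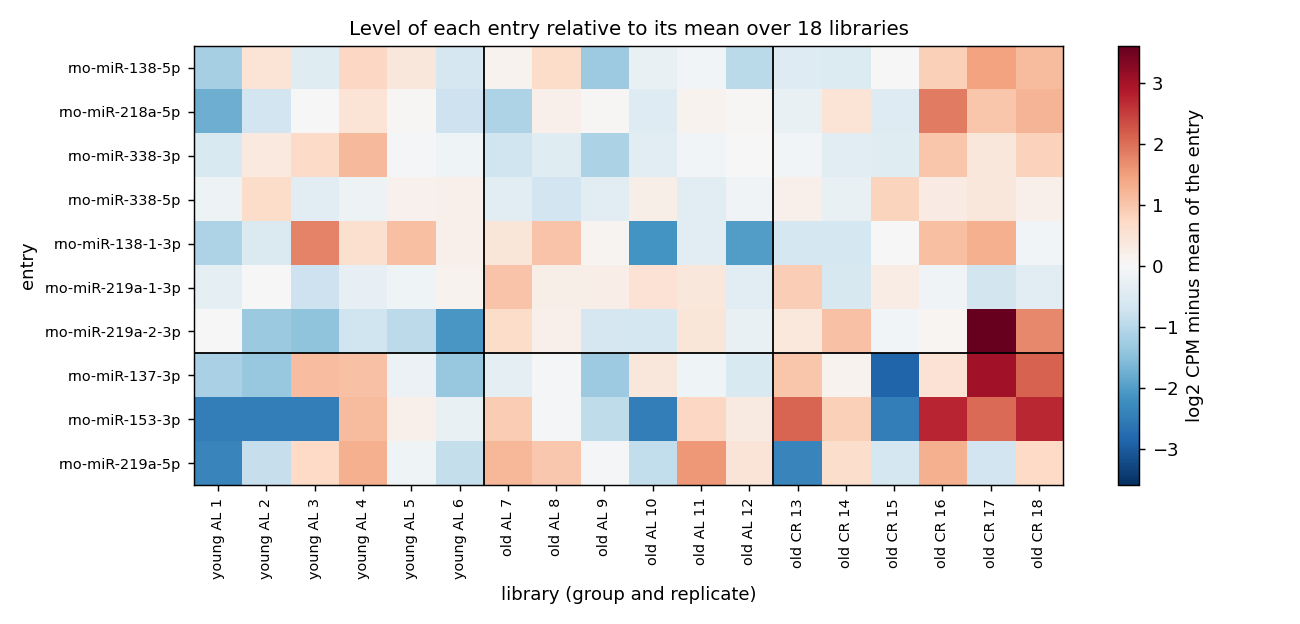
Level of 10 entries (rows) in each library (columns), as log2 CPM with a prior count of 0.5 minus the mean of the entry over 18 libraries. The upper 7 entries reach 100 counts and the lower 3 do not, and the columns of old CR replicates 16, 17 and 18 are red for rno-miR-138-5p, rno-miR-218a-5p, rno-miR-137-3p and rno-miR-153-3p.

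For several of the entries, but not for all, the highest values were gathered in the same few libraries. Old CR replicates 16, 17 and 18 were the 3 highest of 18 libraries for both rno-miR-138-5p and rno-miR-218a-5p. Replicates 17 and 18 were the 2 highest for rno-miR-219a-2-3p and rno-miR-137-3p, and replicates 16 and 18 for rno-miR-153-3p. rno-miR-338-3p was highest in young AL replicate 4, followed by old CR replicates 16 and 18, and rno-miR-338-5p in old CR replicate 15. rno-miR-219a-1-3p stood differently, with replicates 16, 17 and 18 at ranks 10, 17 and 15. rno-miR-138-1-3p was highest in young AL replicate 3, with old CR replicates 16, 17 and 18 at ranks 3, 2 and 11. rno-miR-219a-5p was highest in old AL replicate 11, with old CR replicates 16, 17 and 18 at ranks 2, 13 and 7. From the lowest to the highest library, rno-miR-219a-2-3p varied 53.9-fold, rno-miR-218a-5p 12.3-fold, rno-miR-138-5p 6.85-fold, rno-miR-338-3p 4.94-fold and rno-miR-338-5p 2.83-fold.

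How the members varied between rats of the same group was examined over 6 pairs, after the group means were removed. rno-miR-218a-5p and rno-miR-338-3p varied together, with Pearson r = 0.760 (permutation p = 0.00165, adjusted p = 0.00990) and Spearman rho = 0.732 (permutation adjusted p = 0.0213, n = 18). Within young AL, old AL and old CR, r was 0.830, 0.274 and 0.885 respectively, and over all it was 0.661 without the 2 libraries farthest from the median. For rno-miR-138-5p and rno-miR-338-3p, r was 0.630 (permutation adjusted p = 0.0370) and rho 0.637 (permutation adjusted p = 0.0301), with 0.698, 0.245 and 0.804 within the groups in the same order and 0.497 without the 2 farthest libraries. For rno-miR-138-5p and rno-miR-218a-5p, r was 0.538 (permutation adjusted p = 0.0773) and rho 0.618 (permutation adjusted p = 0.0301). Within the groups in that order r was 0.771, -0.19 and 0.718, so that all 3 relations had their lowest r in old AL.

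The 5p arm of miR-338 had lower values of r with the other members under TMM scaling. The arms of miR-338 had r = -0.02 with each other (permutation adjusted p = 0.947) and rho = 0.0795, although they come from the same hairpin. rno-miR-338-5p had r = -0.21 with rno-miR-218a-5p and 0.139 with rno-miR-138-5p (permutation adjusted p = 0.686 and 0.732). These values depend on the scaling, since all entries of a library share its factor. With library totals in place of TMM the arms of miR-338 had r = 0.436, rno-miR-338-5p with rno-miR-218a-5p had r = 0.187 and rno-miR-338-5p with rno-miR-138-5p had r = 0.640, against 0.711 to 0.833 for the other 3 pairs.

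The entries most like each member over the 18 libraries were found by the root mean square difference of centred log2 levels, among known miRNAs with 100 or more counts. Entries sharing counts with a member were left out, namely rno-miR-3065-5p for rno-miR-338-3p and rno-miR-3065-3p for rno-miR-338-5p. rno-miR-218b, at 80.4% of the counts of rno-miR-218a-5p, was kept. Nearest to rno-miR-138-5p was rno-miR-132-5p at 0.413, followed by rno-miR-330-5p at 0.454 and rno-miR-130a-3p at 0.466, against a median of 0.952 over 487 entries. Nearest to rno-miR-218a-5p was its counterpart rno-miR-218b at 0.0390, followed by rno-miR-193a-3p at 0.425 and rno-miR-452-5p at 0.466 (median 0.988). Nearest to rno-miR-338-3p were rno-miR-29a-5p at 0.326, rno-miR-140-5p at 0.338 and rno-miR-340-3p at 0.350 (median 0.818). Nearest to rno-miR-338-5p were rno-miR-30d-5p at 0.314, rno-let-7c-5p at 0.329 and rno-miR-421-3p at 0.330 (median 0.660), which is little below its own spread of 0.391. rno-miR-132-5p and rno-miR-330-5p belong to the list of other nervous system miRNAs, and the remaining entries do not.

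That list held 36 entries of miR-9a, miR-9b, miR-124, miR-128, miR-129, miR-132, miR-212 and other miRNAs known from neurons. It was chosen with earlier results of these data known, so the shares below describe the list and are not a test of it. In old AL against young AL, 25 of its 28 tested entries were higher, against 414 of all 732 entries. Of the 28, 3 were upregulated by edgeR (rno-miR-129-1-3p, rno-miR-212-3p and rno-miR-598-3p), where it called 0.956% of all entries higher. 7 were upregulated by DESeq2, where it called 11.5% of all entries in either direction. The median log2 fold change was 0.78, against 0.06 over all entries. In old CR against young AL, 29 of 31 were higher, against 407 of all 730 entries. rno-miR-344b-5p, rno-miR-873-3p and rno-miR-873-5p were at 0 CPM in young AL. They entered this test through old CR counts alone and could only be higher. Of the 31, 13 were upregulated by edgeR, where it called 4.11% of all entries higher. 16 were upregulated by DESeq2, where it called 14.9% of all entries in either direction. The median was 2.02, against 0.08 over all entries. This median was the value of rno-miR-344b-1-3p, at 0.0408 CPM in old CR and 0.00746 CPM in young AL (edgeR adjusted p = 0.211). Both levels lie within or below the range of counting limits given above for a count of 0. The 3 entries at 0 CPM in young AL lay above the median, so its size rests partly on entries near the floor. Among the 13 upregulated by edgeR, rno-miR-124-3p, the most characteristic neuronal miRNA, went from 0.530 ± 0.284 CPM (SD, n = 6) to 3.57 ± 3.05 CPM (log2 fold change 2.74, edgeR adjusted p = 0.0173). rno-miR-9a-5p, which marks neural progenitors and neurons, went from 12.0 ± 4.37 to 58.0 ± 45.6 CPM (log2 fold change 2.27, edgeR adjusted p = 0.0133). The other 11 were rno-miR-9a-3p, rno-miR-9b-3p, rno-miR-9b-5p, rno-miR-124-5p, rno-miR-129-1-3p, rno-miR-129-2-3p, rno-miR-129-5p, rno-miR-330-3p, rno-miR-344a-3p, rno-miR-346 and rno-miR-598-3p. These 13 are not all separate observations. Counts of the opposite-strand entries rno-miR-9b-3p and rno-miR-9a-5p lay within 10% or 2 counts of each other in 18 of 18 libraries. rno-miR-129-1-3p and rno-miR-129-2-3p had the same mean in old CR, 0.584 CPM. In old CR against old AL, 28 of 32 were higher, against 373 of all 736 entries. edgeR called 0 entries of the list, against 0.272% of all entries, and DESeq2 called 4, against 2.58%. The 4 were rno-miR-9a-3p, rno-miR-9a-5p, rno-miR-9b-3p and rno-miR-129-5p. They are not all separate observations either, given the matching counts of rno-miR-9b-3p and rno-miR-9a-5p and the shared origin of the miR-9a arms. The median was 0.99, against 0.01 over all entries. 0 entries of the list were downregulated in any comparison.

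**Figure D5:**
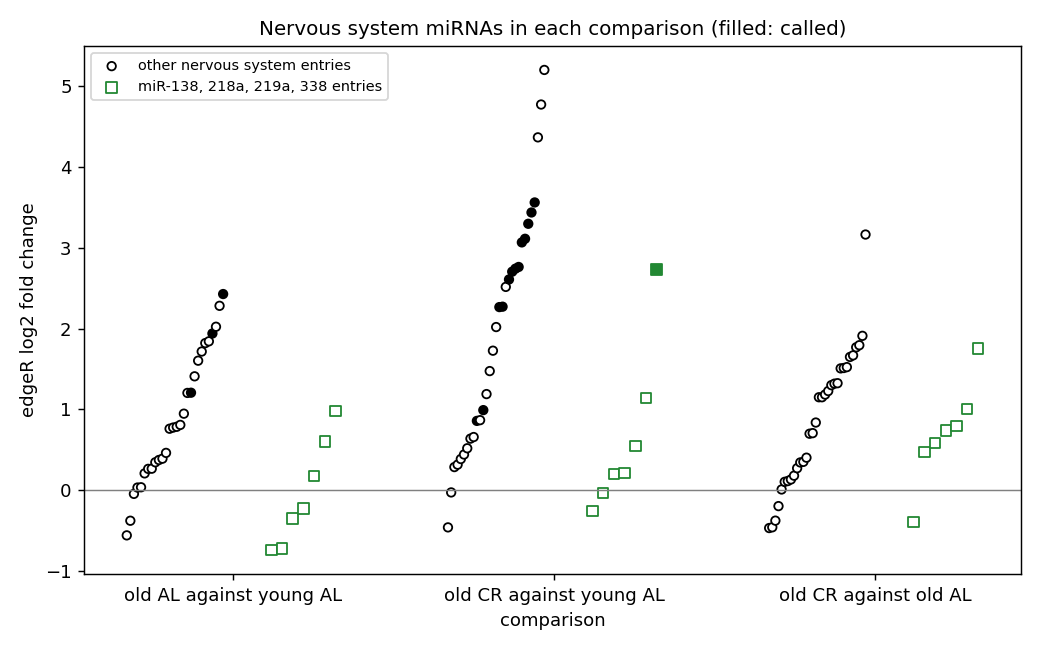
edgeR log2 fold changes in the 3 comparisons of the other nervous system entries (circles) and of the 7 entries of miR-138, miR-218a, miR-219a and miR-338 with 100 or more counts (squares), filled where called. In old CR against young AL 13 circles and 1 square are filled, that of rno-miR-219a-2-3p at 2.73, with the other squares at 1.14 or below.

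The summed level of the list did not follow these counts. It was 584 to 1031 CPM over young AL (median 711), 455 to 797 over old AL (median 503) and 390 to 845 over old CR libraries (median 724), and old CR replicate 16 was the lowest of 18. Most of the sum was rno-miR-128-3p, which muscle also expresses, at a mean of 711 CPM for young AL, 484 for old AL and 518 for old CR rats (SD 134 to 167, n = 6). Its log2 fold change against young AL was -0.56 ± 0.195 in old AL (edgeR adjusted p = 0.127, DESeq2 adjusted p = 0.0545) and -0.46 ± 0.220 in old CR (edgeR adjusted p = 0.203).

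The mean log2 CPM, in which each entry has equal weight, of the 24 entries of this list with 100 or more counts ran from -0.91 to -0.22 over young AL libraries, from -0.15 to 0.54 over old AL libraries and from 0.27 to 1.78 over old CR libraries. Its highest libraries were old CR replicates 17 at 1.78 and 18 at 1.11, which also led for rno-miR-219a-2-3p and rno-miR-137-3p. Old CR replicate 16, the highest for rno-miR-218a-5p, ranked 5 on the list at 0.47. Of the miRNAs that respond to denervation of muscle, 0 of 3 tested entries were called by edgeR or DESeq2 in any comparison. In young AL, old AL and old CR respectively, rno-miR-206-3p had 8092 ± 3329, 8323 ± 4947 and 7010 ± 4380 CPM (SD, n = 6), and rno-miR-133b-3p 1708 ± 512, 1885 ± 480 and 1875 ± 478.

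Markers of other tissues differed in whether they moved with the groups, and their part in the values of the members was not tested. The liver and neuroendocrine lists had entries called by edgeR, and the erythroid and epithelial lists by DESeq2 alone. Shares called over all entries are those given above for each comparison. Of the striated muscle list, 0 of 13 tested entries were called in any comparison by edgeR or DESeq2. Its summed level was 112042 to 143068 CPM over young AL, 85490 to 151965 over old AL and 107138 to 207294 over old CR libraries. This list includes rno-miR-1-3p but not rno-miR-3571 and rno-miR-1b, which hold the rest of the miR-1 counts, so it covers 9.71 to 18.3% of the counts of a library. It had old CR replicates 16, 17 and 18 at ranks 3, 14 and 16 of 18. Of the leukocyte list 0 of 8 tested entries were called, with summed levels of 109 to 241 CPM in old CR against 125 to 172 in young AL and 111 to 609 in old AL. Old CR replicates 16, 17 and 18 ranked 11, 18 and 2 of 18 by this sum and 3, 16 and 2 by mean log2 level. Of the erythroid list 0 of 4, 0 of 3 and 0 of 4 tested entries were called by edgeR in the 3 comparisons, and 1, 0 and 0 by DESeq2, with summed levels of 3.31 to 10.1, 6.53 to 11.7 and 3.48 to 9.53 CPM over the 3 groups. The epithelial list had 9 of 9 tested entries higher in each comparison and 0 called by edgeR, with 2 upregulated by DESeq2 in old CR against young AL. Its summed level was 12.6 to 41.3 CPM in young AL, 18.1 to 74.6 in old AL and 10.1 to 452 in old CR, and the highest library was old CR replicate 14. Old CR replicates 16, 17 and 18 had 44.6, 38.2 and 66.6 CPM, ranks 4, 7 and 3 of 18, and ranked 8, 5 and 2 by mean log2 level. Both arms of the liver miRNA miR-122 were upregulated by edgeR in old CR against young AL, and by DESeq2 also in old AL against young AL, with summed levels of 0.570 to 38.7 CPM over young AL, 49.2 to 777 over old AL and 102 to 187 over old CR libraries. Of the neuroendocrine list (miR-375, miR-7a and miR-7b), 1 of 4, 2 of 4 and 0 of 5 tested entries were upregulated in the 3 comparisons, with summed levels of 193 to 324, 134 to 350 and 191 to 367 CPM over the groups. Old CR replicates 16, 17 and 18 ranked 1, 10 and 5 of 18 by this sum and 5, 3 and 2 by mean log2 level. In the liver list they ranked 5, 8 and 9 by sum and 5, 6 and 9 by mean log2 level. In the erythroid list they ranked 14, 10 and 4 by sum and 7, 15 and 6 by mean log2 level. 1 entry each of the striated muscle (rno-miR-208a-5p) and neuroendocrine (rno-miR-375-5p) lists was at 0 in all libraries. Of the endothelial miRNAs rno-miR-126a-3p, rno-miR-126a-5p and rno-miR-126b, looked up after the values were seen, 0 of 3 were called by edgeR or DESeq2 in any comparison. Their summed level was 4549 to 8099 CPM over young AL, 3832 to 7249 over old AL and 3981 to 6835 over old CR libraries, with old CR replicates 16, 17 and 18 at ranks 6, 11 and 5 of 18.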

How the data were processed

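Small RNA of gastrocnemius muscle was sequenced in 18 libraries, 6 per group. The authors trimmed reads with Cutadapt (v1.2.1) and Sickle, identified known miRNAs and predicted candidates with miRDeep2, and deposited raw, unnormalised counts for 763 known miRNAs and 146 candidates. The submitters' processing notes name Bowtie2 (v2.4.0) and Rnor_6.0. How reads matching several entries or either strand were counted is not given in the sources used here. All columns were matched to samples by their labels (0 left unused).

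Each pair of groups was fitted separately with edgeR (v4.0.16, R v4.3.3) on TMM-scaled counts, with the robust quasi-likelihood test, for entries having 10 or more counts in total over the 12 libraries. All tests were two-sided and adjusted by Benjamini-Hochberg over all entries tested. DESeq2 (v1.42.0), used by the study, was run as an alternative. Exact permutation tests covered all 924 arrangements of 6 against 6 libraries. Correlations used group-centred log2 CPM (prior count 0.5) with 100000 permutations within groups, and their adjusted p covers 6 pairs. Standard errors are those implied by the quasi-likelihood F statistic. Counting limits ignore PCR duplication, since no molecular identifiers were used. Replicates are single rats and differed far beyond counting noise (chi-square per degree of freedom of 1214 or more). The scripts were tested on simulated data.

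Named entries are all entries of the 6 miRNAs, their opposite-strand counterparts, the 3 known miRNAs nearest to each member, called entries of the nervous system list, and miR-206 and miR-133b. The members and the lists were chosen with earlier results of these data known. Entry names were matched to RefSeq (GRCr8) for 686 of the 763 known entries, and opposite-strand pairs overlap by 15 bases or more. Other scalings, filters and tools and each library left out in turn were tried.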

Additional observations from a re-analysis of the deposited data

Results flagged for a closer look

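1 library stood apart from its group among the 10 entries and 3 groups examined (30 sets of 6 libraries). rno-miR-219a-2-3p reached 11.1 CPM (635 counts) in old CR replicate 17, and the next highest old CR library had 3.03 CPM. The gap to that library was 0.789 of the range of the group, above the critical value of 0.625 of Dixon's test for 6 samples. This critical value sets apart about 1 group in 20 by chance where values are normally distributed. The CPM values were not put on a log scale, so whether 1 flag among 30 sets is beyond chance cannot be told. In the same library rno-miR-137-3p had 27 counts, the highest of 18 libraries, and the other nervous system miRNAs had their highest mean level (1.78 log2 CPM), whereas rno-miR-219a-1-3p was at 0.158 CPM, the lowest old CR value. Without this library rno-miR-219a-2-3p had a log2 fold change of 1.74 in old CR against young AL (edgeR adjusted p = 0.0334).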

How the results depend on the processing

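The number of members called stayed at 0 of 4 under all alternatives tried (25 each for the comparisons against young AL and 24 for old CR against old AL). Several signs of small differences turned. rno-miR-138-5p in old AL against young AL had a log2 fold change of 0.054 with library totals in place of TMM, and rno-miR-218a-5p had -0.11 when young AL replicates 1 and 2, whose library numbers stand apart, were left out together. For rno-miR-338-3p in old CR against young AL, leaving out single libraries gave -0.22 to 0.21. The correlation of rno-miR-338-5p with rno-miR-218a-5p became 0.187 and with rno-miR-338-3p 0.436 under library totals. The cause was not tested. For rno-miR-219a-2-3p in old CR against young AL the log2 fold change was 2.20 to 3.11 over 12 alternatives and 1.74 to 3.04 over single libraries left out. Besides the losses of its call given above, it was also lost without young AL replicates 1 and 2 together (3.11, edgeR adjusted p = 0.0637). The number of all entries called varied more. In old AL against young AL it was 24, but 84 with DESeq2, 53 over known miRNAs only, 38 in a single fit, 37 with filterByExpr, 6 with shared counts taken once, 0 with library totals or the exact permutation test, and 9 to 20 with a library left out. In old CR against young AL it was 68, but 109 with DESeq2, 41 with the permutation test and 45 to 67 with a library left out. In old CR against old AL it was 2, but 19 with DESeq2 and 0 to 3 with a library left out. No paired analysis was possible because the groups share no replicate numbers. Entries under 100 counts are limited by counting, and groups of 6 rats by the spread between rats.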
